A study of Mus musculus with 18 samples.

Results

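The sites described here were mRNA cytosines called as m5C in untreated cells and after a shorter deprivation of oxygen and glucose, but not after a longer one. A member was a cytosine in an exon of a protein-coding RefSeq transcript (mm10, same strand) that was called in at least 2 of 3 control libraries and at least 2 of 3 OGD/R 1.5 h libraries and in none of the 3 OGD/R 3 h libraries. This held for 310 of the 18059 distinct mRNA sites of the 9 libraries, which lay in 258 genes. The members were thus chosen by their calls in all 3 groups, so that their absence from OGD/R 3 h is a property of the rule and was given no test.

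RNA-BS-seq was performed on RNA labelled as that of cerebral cortex neurons of C57BL/6 mouse fetuses at day 18 of gestation. The control group received no treatment. In the OGD/R 1.5 h and OGD/R 3 h groups the cells were kept in glucose-free medium under hypoxic gas for 1.5 or 3 h and returned to normal medium for 24 h, so that the groups differed in the length of the deprivation while all reads came from rRNA-depleted, bisulfite-converted RNA. Each group had 3 libraries, which were counted as 1 sample because the study names them replicates of a sequencing pool and their coverage, where held, differed by less than the counting noise. No p-value is therefore given, and ranges over libraries and 95% Wilson intervals cover technical spread and counting error only. The libraries held 5423 to 7772 sites each, of which 3508 to 5269 were mRNA sites, and OGD/R 3 h had the highest numbers (4733 to 5269). The read depth was unknown. None of the 30 neuronal marker genes examined (such as Tubb3, Map2 and Snap25) carried an mRNA site in any library, whereas 29 of 30 markers of intestinal epithelium carried one in at least 1 library, with 17 to 21 of them in each control and OGD/R 1.5 h library and 22 to 27 in each OGD/R 3 h library. The labelled cell type was thus not seen in these sites, and the part of tissue composition in the results was not tested.

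5-methylcytosine is a modification of RNA in which a methyl group is added to cytosine by enzymes such as NSUN2 and NSUN6 in mRNA and other members of the NSUN family and DNMT2 in rRNA and tRNA. In mRNA it can be bound by the export adaptor ALYREF and by YBX1, and it has been linked to mRNA export, stability and translation. Oxygen and glucose deprivation followed by reoxygenation is used in culture as a model of the interrupted and restored blood flow of ischemic stroke. Bisulfite turns unmethylated cytosine into uracil and leaves m5C as cytosine, and a site is called where enough reads keep the cytosine. A site that is not called in a library may have had a level below the limit of the caller, too few reads or no reads, and these cannot be told apart in the lists.

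The following windows show the members with the highest scores, 1 per gene, for which mm10 sequence is printed. Each has 21 bases, 5′ to 3′ on the strand of the mRNA, and the capital marks the called cytosine.
Sdhaf1, chr7:30322253-30322273, minus strand, start codon region: gcgcgccgggCgcgggacgcc
Lgals4, chr7:28835929-28835949, plus strand, CDS: gcaaagtggaCaatggggcaa
Anxa4, chr6:86748957-86748977, minus strand, CDS: ctgtatgaggCtggagagaag
Rnf213, chr11:119402583-119402603, plus strand, CDS: gggggcagtgCtgagagagga
Hint1, chr11:54870271-54870291, plus strand, stop codon region: aaggtgcagaCgggggacagt
Myh11, chr16:14205206-14205226, minus strand, CDS: agagctctggCggcggcagct
Eif4g1, chr16:20679920-20679940, plus strand, CDS: ggtggagaagCtgagagtgag
Myo7a, chr7:98077747-98077767, minus strand, CDS: gaaggaactgCtggagcagat
Anks4b, chr7:120182420-120182440, plus strand, CDS: gggcagaggcCtgtgatggaa

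The windows of Anxa4, Rnf213, Eif4g1, Myo7a and Anks4b share a CTG at the called cytosine, a triplet that 83 of the 307 members with a full window carried (27.0%, 95% CI 22.4 to 32.3). The share was 27.4% in the sites of the same calls that were also found in OGD/R 3 h, 18.6% in all mRNA sites and 10.9% in all cytosines of the transcripts that carry a member. The triplet was looked at after the windows had been seen. The flanking bases were rich in guanine. Guanine made up 41.1% of the bases within 10 nt of a member, 51.8% at the position 3 nt upstream and 55.0% at the position 2 nt downstream. The sites of the same calls that were also found in OGD/R 3 h were close to this, at 39.1, 49.4 and 51.4%. All mRNA sites were at 35.5, 39.3 and 45.7%.

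By context, 80 members (25.8%) were in CG, 139 (44.8%) in CHG and 91 (29.4%) in CHH, where H stands for any base but G. The sites of the same calls that were also found in OGD/R 3 h were at 23.6, 42.5 and 34.0%. All mRNA sites were at 22.4, 37.9 and 39.7%, and all cytosines of the same transcripts at 11.4, 25.5 and 63.2%. Members thus held fewer CHH sites than the cytosines available to them, as did the other mRNA sites. The letters CNGGG starting at the cytosine, like the guanine-rich stretch that follows sites of NSUN2, were found at 19 of 307 members (6.19%, 95% CI 4.0 to 9.46), 3.29% of all mRNA sites and 1.95% of all cytosines, read on the mRNA strand only. In the sites of the same calls also found in OGD/R 3 h the share was 4.25% (95% CI 2.39 to 7.44). The intervals of these sites and of members overlapped. The letters CTCCA, known from sites of NSUN6, were found at 3 of 307 members (0.977%) and at 0.731% of all cytosines. These 3 members are shown with some of the CNGGG members, with the letters of the motif in capitals.
Mdh1, chr11:21564142-21564162, minus strand, CDS: tcctagtgggCTCCAtgccaa
Vegfa, chr17:46032046-46032066, minus strand, 5′ UTR: gtatcaagagCTCCAgagaga
Actb, chr5:142905581-142905601, minus strand, start codon region: ctgtattcccCTCCAtcgtgg
Hint1, chr11:54870271-54870291, plus strand, stop codon region: aaggtgcagaCgGGGgacagt
Frk, chr10:34483575-34483595, plus strand, 5′ UTR: aggcttgaagCaGGGtgagag
Psmd2, chr16:20651813-20651833, plus strand, CDS: cgaagggatgCcGGGgaaaaa
Net1, chr13:3883061-3883081, minus strand, 3′ UTR: aggcaggagtCtGGGataggg

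Of the 569 mRNA sites called in at least 2 control and 2 OGD/R 1.5 h libraries, the 310 members made up 54.5%, and the 259 others, referred to as retained sites, were called in at least 1 OGD/R 3 h library. The share was 75.3% among the 3197 sites called in at least 2 control libraries whatever their calls in OGD/R 1.5 h. With the groups exchanged, 219 of 487 sites (45%) called in control and OGD/R 3 h were absent from OGD/R 1.5 h, and 174 of 421 (41.3%) called in both OGD/R groups were absent from control. The absence of a site from 1 group while the other groups held it was thus common for each group, and these shares rest on the same 9 libraries. Among the members, 149 were called in all 3 libraries of both groups, 45 in 3 control and 2 OGD/R 1.5 h libraries, 48 in 2 and 3, and 68 in 2 and 2. Each control and OGD/R 1.5 h library held 268 to 277 of the members.

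The call score of a site, a number without a unit that grows with coverage and methylation level together and ends at 1000, was low for most members. Their median over the control and OGD/R 1.5 h libraries was 12 (quartiles 5 and 40.5), and per library it lay between 14 and 16 in control and between 12 and 16 in OGD/R 1.5 h. The retained sites had a median of 44. Both sets were split by score. Of sites with a median score from 0 to 4, 72 of 100 (72%) were absent from OGD/R 3 h, and from 5 to 499 the share lay between 45.7 and 63.4%. At scores from 500 to 1000, 3 of 68 sites (4.41%, 95% CI 1.51 to 12.2) were absent. The mRNAs of Lars2, a mitochondrial leucyl-tRNA synthetase, and Tmem38b, an ion channel of the endoplasmic reticulum, held 30 and 16 retained sites, all in the 3′ UTR. Without these 2 genes 3 of 23 sites (13.04%, 95% CI 4.54 to 32.1) were absent at these scores and the median of retained sites was 24. The intervals count each site as independent, also where many sites lie in 1 gene, and are too narrow there. The 31 nt around the Tmem38b site at chr4:53860718 occur at 57 other places in the genome, and at 68 with C read as T. Those around its site at chr4:53860708 occur at no other place. The source of the reads at such sites was not tested. Sites of Vmp1 in the 3′ UTR, with a score of 1000 in all 9 libraries, stayed among the 23.

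**Figure D1:**
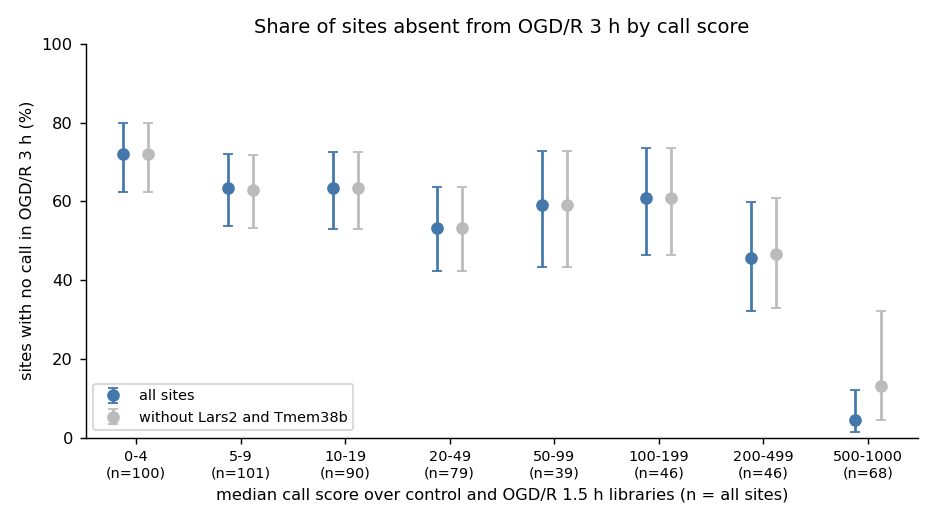
Share of sites without a call in OGD/R 3 h (y axis, %) by the median call score in control and OGD/R 1.5 h (x axis), among the 569 sites of the same calls, with 95% Wilson intervals. It falls from 72% at scores below 5 to 4.41% at scores of 500 or more, and to 13.04% there without Lars2 and Tmem38b (grey points).

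The 3 members above 500 were in Sdhaf1, Lgals4 and Anxa4. Sdhaf1 encodes an assembly factor of succinate dehydrogenase, and its member lay 66 nt into the coding sequence of the only exon. The scores were 106, 643 and 120 in control and 877, 1000 and 675 in OGD/R 1.5 h. In Lgals4, a galectin of the gut epithelium, a site in exon 3 of 10 scored 380, 396 and 601 in control and 623, 905 and 708 in OGD/R 1.5 h. In Anxa4, a calcium-dependent phospholipid-binding annexin, a site in exon 9 of 13 scored 147, 389 and 438 and then 850, 681 and 679. In these 3 genes all OGD/R 1.5 h libraries were above all control libraries, and none of the OGD/R 3 h libraries listed the site. The 31 nt around the Anxa4 site occur at 1 other place in the genome. Other sites of the 3 genes were listed in OGD/R 3 h, with 1 in Sdhaf1, 5 in Lgals4 and 7 in Anxa4, and the nearest lay 4 nt from the member in Sdhaf1 and 8 nt in Lgals4.

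The other members of highest score belonged to genes of different functions. In Rnf213, a large ubiquitin ligase, the site in exon 3 of 68 scored 221, 560 and 457 in control and 460, 481 and 426 in OGD/R 1.5 h. In Hint1, a nucleotide hydrolase, the values were 1000, 243 and 629 in control and 32, 613 and 118 in OGD/R 1.5 h, so that the libraries of each group were far apart. That site lay 308 nt from the first base of the start codon, and a second Hint1 member at 282 nt scored 175, 54 and 221 and then 460, 460 and 99. In Eif4g1, the scaffold of the cap-binding complex of translation initiation, the site in exon 10 of 33 scored 441, 360 and 316 and then 404, 732 and 170. The ranges of control and OGD/R 1.5 h overlapped at these 4 sites.

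The rest of these members lay in genes of cell structure and membranes. In Myo7a, an unconventional myosin, the site in exon 23 of 49 scored 791, 408 and 401 in control and 343, 144 and 85 in OGD/R 1.5 h. In Anks4b, a scaffold protein of microvilli, the values were 438, 817 and 378 and then 342, 71 and 139. At these 2 sites all OGD/R 1.5 h libraries were below all control libraries. In Myh11, the smooth muscle myosin heavy chain, the scores of 633, 404 and 439 and of 151, 156 and 522 overlapped. So did those of the phospholipid flippase Atp8b1, at 258, 960 and 504 and then 173, 136 and 454.

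**Figure D2:**
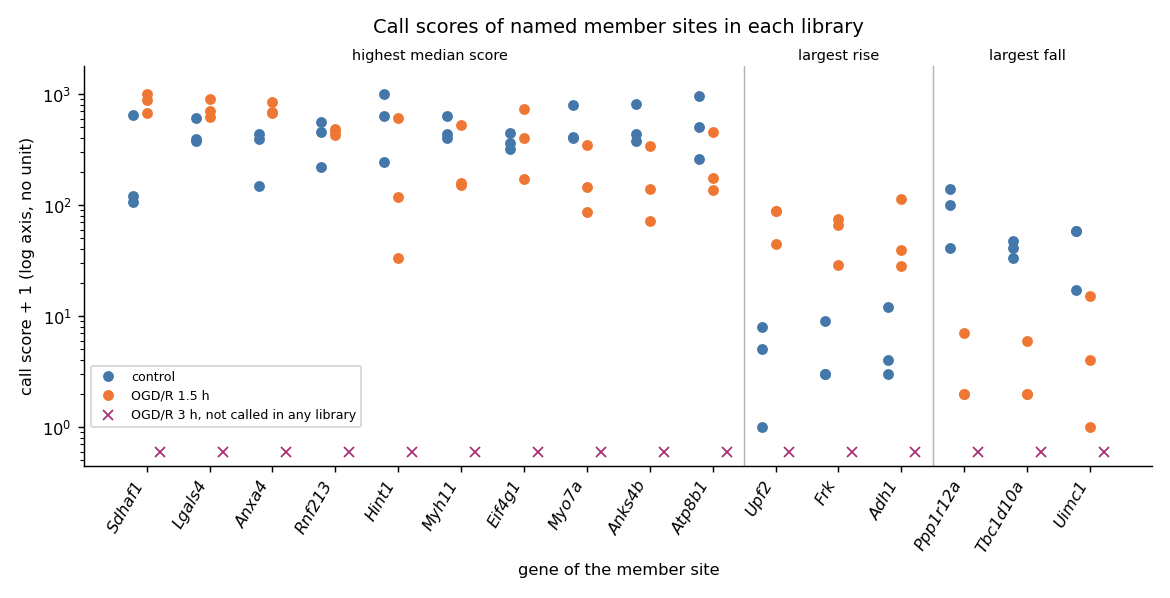
Call scores of 16 member sites (y axis, score + 1, log axis) by gene (x axis), with a point for each control and OGD/R 1.5 h library and a cross where no OGD/R 3 h library listed the site. The 10 sites on the left have the highest median scores, from 356 to 659, and the other 6 have the largest rise or fall from control to OGD/R 1.5 h among members whose groups do not overlap.

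Between control and OGD/R 1.5 h, whose direction the rule did not set, members differed little as a set. Over the 149 members called in all 6 libraries, the median difference of the mean log2(score + 1) was −0.28 (quartiles −1.22 and 0.63), with 63 members higher and 86 lower in OGD/R 1.5 h, and it was −0.11 without control replicate 3. Over all 294 mRNA sites called in the 6 libraries the median was −0.09. The 3 OGD/R 1.5 h scores were all above control for 14 members (9.40%, against 9.18% of all such sites) and all below for 16 (10.7%, against 13.6%). Both shares were near those of all sites.

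The largest rise was in Upf2, a factor of nonsense-mediated mRNA decay, where a site in exon 2 scored 4, 7 and 0 in control and 44, 87 and 87 in OGD/R 1.5 h, a difference of 4.36 on the log2(score + 1) scale. In the 5′ UTR of Frk, a tyrosine kinase of the Src family, the scores went from 2, 2 and 8 to 65, 74 and 28. In Adh1, an alcohol dehydrogenase, a site 20 nt before the start codon scored 11, 2 and 3 and then 113, 27 and 38. Each of these sites was thus higher in every OGD/R 1.5 h library and missing from every OGD/R 3 h library. Neither Upf2 nor Frk had any site in OGD/R 3 h, and Adh1 had 1. The same order was found in Ndrg1, a gene induced by hypoxia, at 3, 3 and 0 and then 5, 5 and 113, where a single library carried most of the difference.

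The largest fall was in Ppp1r12a, the subunit that directs myosin phosphatase to its substrate. Its site in exon 8 of 25 scored 40, 100 and 137 in control and 6, 1 and 1 in OGD/R 1.5 h, a difference of −4.77 on the log2(score + 1) scale. In Tbc1d10a, a GTPase-activating protein for Rab proteins, a site 14 nt before the start codon scored 40, 46 and 32 and then 1, 1 and 5. In Uimc1, a ubiquitin-binding protein of DNA repair, the values were 57, 57 and 16 and then 3, 0 and 14. These sites were low after 1.5 h and not listed after 3 h. A site of Map2k1, a kinase of the MAPK cascade, scored 52, 44 and 63 and then 5, 2 and 16, and one of St14, a membrane serine protease of epithelia, 93, 69 and 93 and then 5, 6 and 41.

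At the edge of the rule, members called in 2 and 2 libraries with the lowest scores lay in Clec16a (2 and 2 in control, 2 and 2 in OGD/R 1.5 h), Eif3l (3 and 0, then 2 and 4) and Vdac1 (2 and 2, then 2 and 4). Just outside it were sites called in all 6 libraries and in 1 OGD/R 3 h library, in Hnrnpul2 with a score of 0 there, in Sptan1 with 1 and in Actr3 with 3. The Hnrnpul2 site had scored 2, 6 and 2 in control and 5, 6 and 61 in OGD/R 1.5 h.

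By position, 164 members (52.9%) lay in the CDS, 83 (26.8%, 95% CI 22.2 to 32.0) within 100 nt of the start codon, 40 (12.9%) in the rest of the 5′ UTR, 11 (3.55%) within 100 nt of the stop codon and 12 (3.87%) in the rest of the 3′ UTR. Per 1000 cytosines of the same transcripts members numbered 5.75 around the start codon, 3.15 in the remaining 5′ UTR and 1.09 in the CDS, and they were sparser around the stop codon (0.837) and beyond it (0.153). Retained sites were in the 5′ UTR in 3.47% of cases and in the start codon region in 14.7%. Their 3′ UTR share of 25.5% was 9.39% without Lars2 and Tmem38b, whereupon 4.23 and 17.8% lay in the 5′ UTR and the start codon region. All mRNA sites stood at 7.28% in the 5′ UTR, 23.9% in the start codon region and 6.98% in the 3′ UTR. The shares of members at the 5′ end of the mRNA were thus above those of retained sites, also without the 2 genes. The sets differed in score, however, with medians of 12 for members and 24 for retained sites without the 2 genes. With a score of at least 10 required, 20.7% of members lay in the start codon region and 9.09% in the 3′ UTR. The regions of members and retained sites were not compared at equal scores. Of the 2406 sites called in at least 2 control libraries and absent from OGD/R 3 h, 11.6% were in the 5′ UTR and 33.7% in the start codon region.

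**Figure D3:**
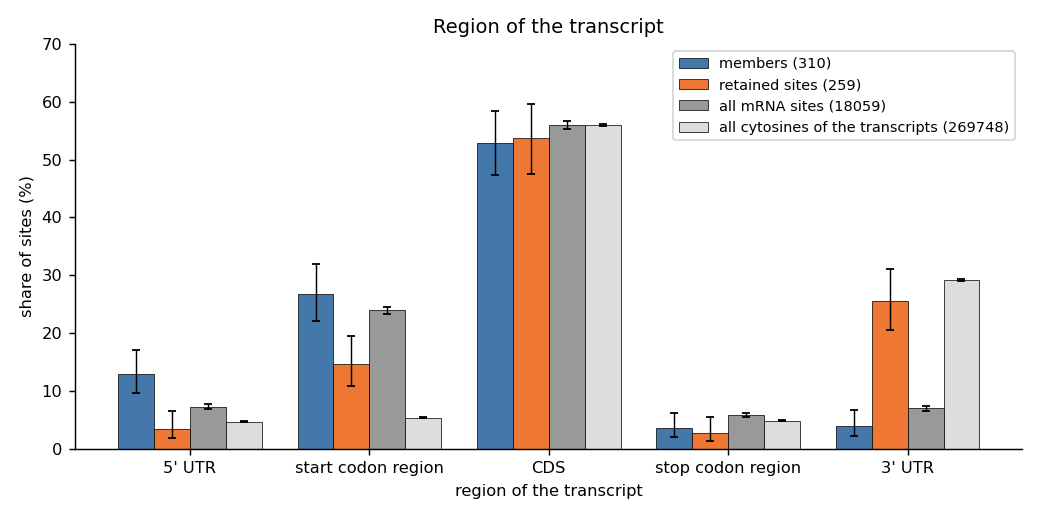
Share of sites (y axis, %) in each region of the transcript (x axis) for members, retained sites, all mRNA sites and all cytosines of the transcripts with a member, with 95% Wilson intervals. Members reach 12.9% in the 5′ UTR and 26.8% in the start codon region, above retained sites (3.47 and 14.7%), and stand at 3.87% in the 3′ UTR.

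Around the start codon, the 100 nt from its first base held 50 members (16.1%), the 100 nt before it 33 (10.6%) and the 100 nt before those 25 (8.06%). The same stretches held 7.72, 6.95 and 1.54% of retained sites and 12.5, 11.5 and 3.95% of all mRNA sites. Retained sites here include the 30 and 16 in the 3′ UTR of Lars2 and Tmem38b, which lower these shares. They also had a higher median score than members (44 against 12), and the stretches were not compared at equal scores. Members of these stretches included those of Sdhaf1 and Adh1, described above. The next 100 nt of the CDS held 24 members (7.74%), such as that of Pabpc1, the poly(A)-binding protein, which scored 77, 113 and 86 in control and 6, 3 and 89 in OGD/R 1.5 h. Among members called in all 3 libraries of both groups, 40.3% lay in the start codon region. With a score of at least 10 required, the share was 20.7%.

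**Figure D4:**
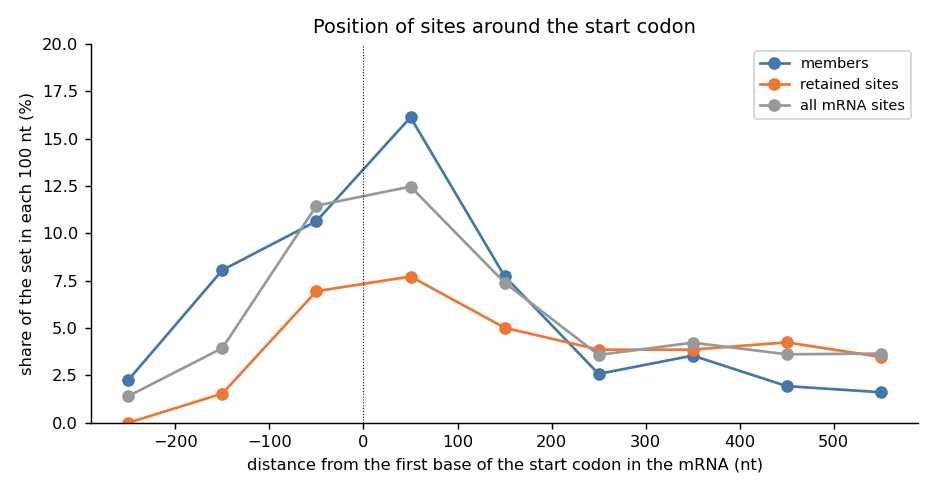
Share of members, retained sites and all mRNA sites (y axis, %) in each stretch of 100 nt (x axis, distance from the first base of the start codon in the mRNA, in nt). Members peak at 16.1% in the first stretch of the CDS, where retained sites stand at 7.72% and all mRNA sites at 12.5%. Retained sites include those in the 3′ UTR of Lars2 and Tmem38b, which lower their shares here.

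The 12 members in the 3′ UTR included sites of Des, Net1, Cyb5r3 (2 sites), Spryd3, Ppil2 and Cpsf7. In Des, the intermediate filament desmin of muscle, the site in exon 9 of 9 scored 481, 98 and 179 in control and 74, 80 and 76 in OGD/R 1.5 h. In Net1, an exchange factor for RhoA, the order was the opposite, with 149, 173 and 119 and then 236, 528 and 301. Cyb5r3, a cytochrome b5 reductase, had scores of 214, 284 and 274 and then 50, 20 and 440 at its higher site, where 1 OGD/R 1.5 h library stood above all control libraries and the others below. The members on the mitochondrial genome lay in ND4 and CYTB.

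Many members lay beside sites that were called in OGD/R 3 h. Within 50 nt, 165 members (53.2%, 95% CI 47.7 to 58.7) had a site in at least 1 OGD/R 3 h library and 111 (35.8%) in all 3, although not necessarily the same site. Whether reads covered the member itself was not tested. The first share was 51.3% for all sites called in at least 2 control libraries and absent from OGD/R 3 h, and 83.8% for retained sites, so members stood close to other absent sites. Neighbours in the control and OGD/R 1.5 h libraries were found within 50 nt for 81.6 and 76.1% of members. Within 10 nt, the share for OGD/R 3 h was 33.2%. For the other members no call within 50 nt was found in OGD/R 3 h.

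A site called in all 3 OGD/R 3 h libraries was found in the same mRNA for 168 members, within 10 nt for 55 and on the adjacent base for 14. Of the 14 adjacent sites, 10 had no call in any control or OGD/R 1.5 h library. These counts were not made for other sites, so no trait of members is read from them. A call within 10 nt in each of the 3 OGD/R 3 h libraries, not necessarily the same site, was found for 19.0% of members. The share was 18.4% for all sites called in at least 2 control libraries and absent from OGD/R 3 h, and 44.4% for retained sites. In Ckmt1, a mitochondrial creatine kinase, the member scored 556, 327 and 107 in control and 93, 114 and 409 in OGD/R 1.5 h, and the adjacent cytosine scored 144, 75 and 81 in OGD/R 3 h. In Apoa4, an apolipoprotein of the gut, the member scored 79, 423 and 95 in control, was called in OGD/R 1.5 h with 124 and 155, and the cytosine before it scored 694, 409 and 599 in OGD/R 3 h. In ND4, a subunit of respiratory complex I, the member scored 39 and 26 in control and 33, 58 and 107 in OGD/R 1.5 h, and the cytosine before it 496, 588 and 292 in OGD/R 3 h. The adjacent cytosines of these 3 members were listed in OGD/R 3 h only. In ND4 the cytosine 2 nt before the member was listed in all groups, with 87 and 57 in control (2 libraries), 98, 107 and 23 after 1.5 h and 25, 39 and 46 after 3 h. The windows are given with the member in capitals, chosen because the adjacent base was called in OGD/R 3 h.
Ckmt1, chr2:121361210-121361230, plus strand, CDS: tctgccggggCctcaaagagg
Apoa4, chr9:46243018-46243038, plus strand, CDS: actgtggagcCcatgggagag
ND4, chrM:11192-11212, plus strand, CDS: aatcatggccCgaggacttca

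Members were mostly single in their genes. The 259 retained sites lay in 155 genes, and the 5 genes with most held 60 of them, against 15 members. Lars2 and Tmem38b held 30 and 16 of these retained sites. The share within 10 nt of another site of the same set was computed for members only. One member was found in 214 genes, 2 in 36 and 3 in 8, and 14 members (4.52%) had another member within 10 nt, a share that was 1.76% without control replicate 2, 1.70% without control replicate 3, 2.51% without OGD/R 1.5 h replicate 1 and 2.61% without OGD/R 1.5 h replicate 3. Without 1 of these libraries, calls in both remaining libraries of its group were required, a stricter rule. The 8 genes with 3 members were Ctnnb1, Iqgap2, Map2k1, Ncor1, Papss1, Ppp1r12a, Ppp1r1b and Specc1l. The members of Ctnnb1, which encodes β-catenin of cell junctions and Wnt signaling, lay 117, 94 and 76 nt before the start codon with scores of 28, 46 and 1, of 52, 6 and 22 and of 17, 30 and 7 in control. Ctnnb1 had 6 to 9 sites in each control library, 9 to 17 in each OGD/R 1.5 h library and 27 to 42 in each OGD/R 3 h library, so that its members were absent from an mRNA with more sites than in control. Ncor1, a nuclear corepressor, had 34 to 38, 31 to 37 and 27 to 37 sites. Ppp1r12a had 12 to 17, 7 to 12 and 2 to 7.

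Of the 258 genes with a member, 250 to 255 carried an mRNA site in each control and OGD/R 1.5 h library, which follows from the rule, and 165 to 171 in each OGD/R 3 h library. In 71 genes (27.5%, 95% CI 22.4 to 33.3) no OGD/R 3 h library had any mRNA site. The share was 36.2% of the 1156 genes with a site in at least 2 control libraries, of which the genes with a member are a part. It was 31.9% (95% CI 29.1 to 34.8) of the 1014 genes with a site in at least 2 OGD/R 1.5 h libraries, and this interval overlapped that of genes with a member. Genes with a member had a median of 5 distinct control sites, against 3 for the 1156, and the sets were not compared at equal numbers of sites. In 91 further genes with a member OGD/R 3 h had fewer distinct sites than control, in 19 as many and in 77 more. Members were thus found both in mRNAs without any call after 3 h and in mRNAs with more calls than in control, such as Fcgbp (10 to 13 sites in each control library, 66 to 72 in each OGD/R 3 h library) and Actb (30 to 38 and 74 to 82). Both were picked from the largest gains. These counts were not made for genes without a member, and OGD/R 3 h libraries held more mRNA sites in all (4733 to 5269, against 3800 to 4146 in control). Nothing particular to genes with a member is therefore read from them. Another site of the same calls was retained in 54 of the 258 genes.

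**Figure D5:**
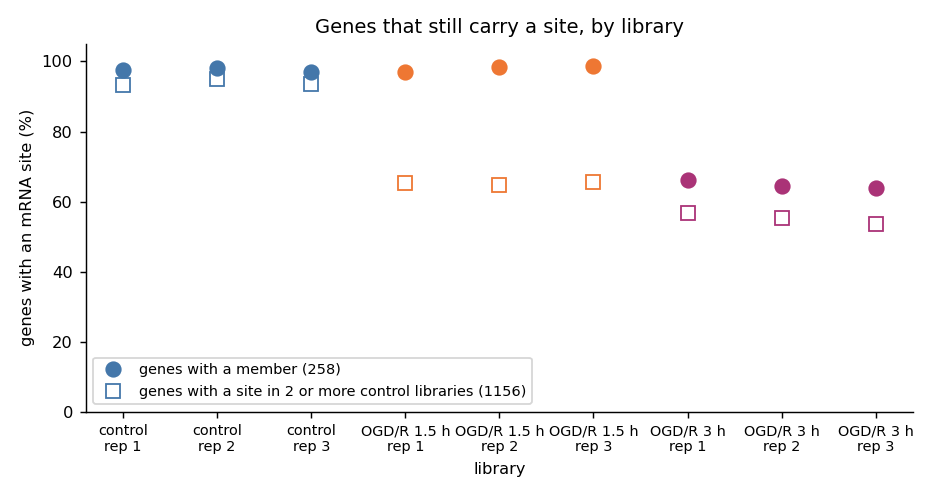
Share of genes with at least 1 mRNA site (y axis, %) in each library (x axis), for the 258 genes with a member (circles) and the 1156 genes with a site in at least 2 control libraries (squares). Genes with a member stand at 96.9 to 98.8% in control and OGD/R 1.5 h, as the rule sets, and at 64.0 to 66.3% in OGD/R 3 h, against 53.5 to 56.7% for the squares. The sets also differ in distinct control sites per gene, with medians of 5 and 3.

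The 71 genes without a site in OGD/R 3 h held 75 members. They had 151 to 161 sites in each control library and 119 to 130 in each OGD/R 1.5 h library. Rbm6, an RNA-binding protein, had the most, with 9, 9 and 10 sites in control and 3 in each OGD/R 1.5 h library. Dnm2, the GTPase dynamin 2 that cuts off endocytic vesicles, had 3, 5 and 5 sites in control, 4 in each OGD/R 1.5 h library and none in OGD/R 3 h, and its members scored 235, 52 and 12 and 14, 1 and 2 in control. Eif4e, the cap-binding protein, had 4, 3 and 4 sites and then 2, 1 and 6. The others included Frk and Slc26a2 with 2 members each, the m6A reader Ythdf2, the helicase Ddx3x, the chromatin regulators Bptf, Nsd3, Ezh2 and Asxl1, and Eif2s2, Psmd2, Upf2, Des and Myo7a. These genes were picked after their values had been seen. In these bulk samples fewer cells of a type and less RNA per cell cannot be told apart, and the part of transcript amounts in the absence of sites was not tested.

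Of the 2599 genes with an mRNA site, 9.93% carried a member, and gene lists were read against this. Translation factors had 8 of 27 genes with a site (29.6%), actin cytoskeleton and adhesion genes 17 of 71 (23.9%), and chromatin regulators 8 of 45 (17.8%). The count of translation factors was 4 without OGD/R 1.5 h replicate 2 and 5 without control replicate 2, and that of chromatin regulators 4 without control replicate 2 or 3 and 5 without OGD/R 1.5 h replicate 2. With a library left out, calls in both remaining libraries of its group were required, a stricter rule. Splicing and RNA-binding proteins had 5 of 39 (12.8%), vesicle trafficking 6 of 53 (11.3%), ubiquitin and proteasome genes 4 of 45 (8.89%), chaperones 2 of 28 (7.14%), glycolysis and respiration 3 of 44 (6.82%) and cytosolic ribosomal proteins 1 of 30 (3.33%). Among the 14 apoptosis regulators and the 3 genes of the m5C machinery with a site, none had one called in at least 2 control and 2 OGD/R 1.5 h libraries, so none could carry a member. Ndrg1 and Vegfa were the members among 7 hypoxia genes with a site. Only genes with a site called in at least 2 control and 2 OGD/R 1.5 h libraries could carry a member, and of the 359 such genes 258 did (71.9%). Against these, the counts were 8 of 8 translation factors, 17 of 25 actin and adhesion genes (68%) and 8 of 11 chromatin regulators (72.7%). The shares of actin and adhesion genes and of chromatin regulators were near that of all such genes, so they showed no excess of members. Nothing is read from the 8 translation factors. In the other lists the counts were 5 of 6 splicing and RNA-binding genes, 6 of 13 vesicle trafficking genes (46.2%) and 4 of 5 ubiquitin and proteasome genes. They were 2 of 4 chaperones, 3 of 5 glycolysis and respiration genes, 1 of 5 ribosomal protein genes and 2 of 3 hypoxia genes. Nothing is read from these small counts.

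Among translation factors the members were in Eif4g1 (2 sites), Eif2s2, Eif3a, Eif3l, Eif4e, Eif4h, Etf1 and Pabpc1, which covers cap binding, start codon selection and termination. In Eif2s2, the β subunit of the factor that brings the initiator tRNA, the scores were 535 and 351 in control and 60 and 116 after 1.5 h, with 2 libraries each, and no site of the mRNA was listed in OGD/R 3 h. Its 31 nt window, like that of Eif3a, Eif4e and Eif4h, occurs at 1 other place in the genome when C is read as T. In Etf1, the release factor that reads stop codons, a site 32 nt into the CDS scored 5, 112 and 4 and then 103, 301 and 559. The scores of Eif2s2 were lower in OGD/R 1.5 h without overlap, and those of Etf1 overlapped between the groups.

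Among actin and adhesion genes, the 17 genes held 23 members, and 1 of them, Myo7a, had no site in OGD/R 3 h. Dsp, which encodes desmoplakin of desmosomes, scored 219, 427 and 189 in control and 96, 93 and 169 in OGD/R 1.5 h, without overlap. A site of Pfn1, profilin 1, scored 10, 31 and 14 and then 37, 36 and 97. The nonmuscle myosin Myh14 had a member with 154, 147 and 244 and then 235, 488 and 384. Iqgap2, a scaffold of the actin cytoskeleton, scored 178, 340 and 178 and then 194, 61 and 79 at its member in exon 32 of 36. These mRNAs had OGD/R 3 h sites elsewhere, with 8 in Dsp, 43 in Pfn1, 23 in Myh14 and 9 in Iqgap2.

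Among chromatin regulators, the members lay in Ncor1 (3 sites), Asxl1, Bptf, Brd3, Chd8, Ezh2, Nsd2 and Nsd3, and 4 of the 8 genes (50%) had no site in OGD/R 3 h, against 27.5% of all genes with a member. Nothing is read from this small count. Ncor1 scored 44, 36 and 121 in control and 20 and 8 in 2 OGD/R 1.5 h libraries at its highest member. Brd3, a bromodomain protein that binds acetylated histones, scored 28 and 69 in the control libraries that listed it, then 44, 17 and 7 after 1.5 h. Both sites had medians above the 12 of all members. Ezh2, the H3K27 methyltransferase of the Polycomb complex, scored 2 and 4 in control and 3 and 16 in OGD/R 1.5 h, and Asxl1 9, 10 and 2 and then 11, 32 and 8. Chd8, a chromatin remodeler, scored 5, 30 and 51 and then 16, 17 and 12 and had 3 sites in OGD/R 3 h. Of the hypoxia genes, Vegfa, which encodes the growth factor of blood vessels, scored 9, 17 and 16 and then 14, 31 and 2 at the site 166 nt before its start codon, with 2 other sites in OGD/R 3 h. By marker lists, 4 intestinal genes (Apoa4, Lgals4, Epcam and Fcgbp) and 2 smooth muscle genes (Des and Myh11) carried members, out of 29 (13.8%) and 12 (16.7%) genes with a site. Over all genes with a site the share was 9.93%. Of the genes that could carry a member, 4 of 7 intestinal genes (57.1%) and 2 of 2 smooth muscle genes did. The share was 71.9% of all such genes, so these lists showed no clear excess of members. The neuronal, astrocyte, oligodendrocyte, microglia, erythroid and neutrophil lists had 0, 2, 1, 1, 3 and 4 genes with a site, none of them called in at least 2 control and 2 OGD/R 1.5 h libraries, so that none could carry a member.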

How the data were processed

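Bisulfite libraries of 9 samples were analysed. The 9 mock libraries were not analysed here. The authors used cutadapt 1.9.3 for trimming, meRanGh for alignment to mm10 and meRanCall for site calling, with minimum levels of 0.1 and a minimum coverage of 10. CASAVA 1.8 and STAR are also named in the submitters' processing notes. The deposited score is 10 times the call score of meRanCall, cut to a whole number and capped at 1000, without normalization for depth. Levels and coverage were not derived, so the logistic model considered for counts was not run.

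Sites were assigned to GRCm38.p6 RefSeq transcripts (37880 transcripts of 21013 genes) in Python 3.11.15 (scipy 1.17.1, numpy 2.4.6), taking the transcript with the longest CDS, and all 25890 sites fell on a cytosine. Positions count from 1, and sequences are those of the mm10 RefSeq genome. Figures were drawn with matplotlib 3.10.9. Score differences used log2(score + 1). The selection was tested on simulated data. The coverage of replicates was compared in the held part of a supplementary table, for control and OGD/R 3 h; OGD/R 1.5 h was treated likewise.

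The members and gene lists were chosen with earlier results of these data known. Genes were named as the 10 members with the highest median score, the 6 genes with most members, the 3 largest rises and falls, the 5 members nearest to a site of all OGD/R 3 h libraries, members at the edge of the rule and up to 3 genes per list. Others were picked after seeing their values. Alternatives were stricter calls, a minimum score of 10, isolated sites, other windows, GENCODE vM21 and each library left out. Some items are not reported here.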

Additional observations from a re-analysis of the deposited data

How the results depend on the processing

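No paired analysis was possible because no result comes from a test and the replicate numbers are not tied to cultures or animals. Of 217 recomputed values, 164 stayed within 1.5 times the count, the 95% interval or 1 SD of the reported value, and 53 did not. With calls in all 3 control and all 3 OGD/R 1.5 h libraries, 149 members in 137 genes remained, with 40.3% in the start codon region, 32.9% in CG, 22.1% in CHH, a median score of 17.5, 1.34% near another member, 4 translation factors and 3 chromatin regulators. With a score of at least 10, there were 121 members in 108 genes, with 20.7% in the start codon region, 9.09% in the 3′ UTR, a median of 71, 17.6% of genes without an OGD/R 3 h site, 1.65% near another member, 4 translation factors and 2 chromatin regulators. Among sites with no other site within 10 nt, there were 127 members in 119 genes, with 21.3% in the start codon region, 7.87% in the 3′ UTR, 24.4% in CHH, a median of 19, a log2 difference of 0.012 in place of −0.28, 36.2% with an OGD/R 3 h neighbour, 0% near another member by construction, 4 translation factors, 1 chromatin regulator and 10 actin genes. Calls in at least 1 library of each group gave 1202 members in 665 genes. The start codon share was 13.2% with 50 nt around the codon. The neighbour share was 33.2% within 10 nt, 47.4% within 25 nt and 35.8% with all 3 OGD/R 3 h libraries. Genes without a site in at least 2 OGD/R 3 h libraries made up 39.9%, and 9.35% of members had another within 25 nt. Chosen after seeing the data, members whose 31 nt window is found once left 4 translation factors. For changes not shown by the setting itself, the cause was not tested.

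With each library left out in turn, members numbered 227 to 341 in 199 to 278 genes. Leaving out a control or OGD/R 1.5 h library made the rule stricter, since calls in both remaining libraries of its group were required. Leaving out an OGD/R 3 h library made it looser. Effects of a single library and of the changed rule cannot be told apart here. The start codon share ranged from 25.5 to 33.5%, the highest without OGD/R 1.5 h replicate 3, the median score from 12 to 14, the log2 difference from −0.38 to −0.11, and the share near another member from 1.70 to 5.67%. Translation factors ranged from 4 to 8 and chromatin regulators from 4 to 9. The unknown read depth limits all results, since a site without a call is not a site without methylation.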

Other observations

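Outside the exons of protein-coding transcripts, 146 of 781 sites (18.7%) called in at least 2 control and 2 OGD/R 1.5 h libraries were absent from every OGD/R 3 h library, against 54.5% of mRNA sites. The scores of these 781 sites were not compared with those of mRNA sites, among which the absent share fell with score. Nothing particular to mRNA is therefore read from the difference. Chromosome 11 held 45 members (14.5%) and 10.0% of all mRNA sites. The 31 nt around a member, with C read as T, were found at 1 place in the genome for 293 of 307 members (95.4%) and for 218 of 259 retained sites (84.2%).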
